A study of Mus musculus with 6 samples.

Results

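The epidermal growth factor receptor (EGFR) ligands and the ERBB receptors were followed through stimulation with colony-stimulating factor 1 (CSF-1) in N18-Fms mouse prostate cancer cells. The 10 genes, 6 ligands (Btc, Areg, Ereg, Hbegf, Tgfa and Epgn) and 4 receptors (Egfr, Erbb2, Erbb3 and Erbb4), were chosen by name from the 36163 genes of the array, where 13 of 55681 probes carried their names. Expression was measured on 6 single-color Agilent mouse arrays, 2 in each of 3 groups. The groups were unstimulated cells (Control), cells given recombinant mouse CSF-1 at 100 ng/mL for 24 h (24H CSF1), and cells given the same dose for 48 h (48H CSF1). The labels give these times, while the methods of the study name shorter ones, and the labels were followed. The labels also describe the Control cells both as left unstimulated and as given vehicle.

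All groups shared one genetic background. N18 is a single clone of the C2H line, itself cloned from a prostate tumor line of TRAMP mice, a model with a prostate-directed oncogene, and it carries a luciferase vector. The N18-Fms cells were made from it by retroviral transfer of the mouse c-fms cDNA, which encodes the CSF-1 receptor, and were sorted for that receptor on the cell surface, so that the Control cells carried it too. Medium with serum and dihydrotestosterone was common to all. The 2 RNA samples of a group came from 2 independent experiments.

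The ERBB family is a system of growth factors and receptor tyrosine kinases. Its ligands are made as membrane-bound precursors and are released by metalloproteases of the ADAM family. The EGFR ligands bind the extracellular part of EGFR or, for some of them, ERBB4, and the neuregulins that of ERBB3 or ERBB4. The bound receptors then pair with each other or with another ERBB receptor. The pairs signal through the RAS to ERK and the PI3K to AKT pathways. ERBB2 has no known ligand of its own, ERBB3 has a weak kinase, and in prostate epithelium the family is known for supporting growth and survival.

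The 4 ligand genes Epgn, Ereg, Areg and Btc lie next to each other in this order on chromosome 5, and their probes spanned 322.9 kb in the mm9 build, the one the probe annotation of the files uses. The sequences before the starts of 3 of them are shown because these neighbors behaved differently on the arrays, as given below. They come from RefSeq in the GRCm38.p6 build, cover the 250 bases before each start, and lie at chr5:91402995-91403244 on the minus strand for Btc, at chr5:91139349-91139598 on the plus strand for Areg and at chr5:91027267-91027516 on the plus strand for Epgn. Capitals mark the motifs that were found.
Btc: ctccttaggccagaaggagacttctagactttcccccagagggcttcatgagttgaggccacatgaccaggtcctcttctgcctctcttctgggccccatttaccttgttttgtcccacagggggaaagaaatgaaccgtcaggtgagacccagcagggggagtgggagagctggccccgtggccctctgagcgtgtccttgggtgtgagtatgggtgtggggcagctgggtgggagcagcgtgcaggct
Areg: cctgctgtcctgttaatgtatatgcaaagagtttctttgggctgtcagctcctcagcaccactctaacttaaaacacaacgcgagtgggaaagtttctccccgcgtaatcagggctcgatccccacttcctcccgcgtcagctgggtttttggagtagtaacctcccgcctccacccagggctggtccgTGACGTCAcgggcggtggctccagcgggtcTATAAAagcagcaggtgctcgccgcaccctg
Epgn: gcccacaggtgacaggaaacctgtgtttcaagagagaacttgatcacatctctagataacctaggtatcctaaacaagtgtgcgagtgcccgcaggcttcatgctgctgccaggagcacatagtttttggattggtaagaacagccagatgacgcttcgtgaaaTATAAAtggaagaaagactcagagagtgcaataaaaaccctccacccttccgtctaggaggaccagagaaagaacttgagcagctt

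Promoter sequences were matched for 7 of the 10 genes, all but Ereg, Hbegf and Erbb3. Each was searched on both strands for 4 motifs, none of which contains another: TGACGTCA (the cAMP response element), TGANTCA (the AP-1 site), TTCNNNGAA (a STAT site) and TATAAA (the TATA box). Among the 7 genes TGACGTCA was found in Areg alone, where it began at position -61 from the start, and it occurred in 1.55% of the same windows of all 32851 RefSeq promoters. TATAAA was found in Areg at -31 and in Epgn at -86, against 12.4% of all promoters. The letters TGANTCA (6.75% of all promoters) and TTCNNNGAA (7.02%) were not in any of the 7 windows.

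Signals are given below as percent of the 75th percentile of the array's processed signals, so that 100 stands for the 75th percentile. They compare arrays for 1 probe and say nothing of one gene's level against another's. A fold change is the difference of log2 means, a gene passed the test at a limma p of less than 0.05 after Benjamini-Hochberg adjustment over 24648 tested genes, and square-bracketed pairs are 95% confidence intervals of the log2 fold change. With 2 arrays against 2 an exact permutation test cannot go below p = 0.333, so the tests rest on a spread estimated across genes. In cultures measured in bulk, fewer cells of a kind and less RNA per cell cannot be told apart.

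Between 58.7% and 72.0% of the 59305 spots of an array were well above background, and none was saturated. The correlation of the arrays of a group lay between 0.993 and 0.994 across genes, which are not independent replicates. Csf1r, the transduced receptor, was well above background on all arrays. Its log2 signal differed from Control by 0.22 (24 h, adjusted p = 0.367) and -0.07 (48 h, adjusted p = 0.793), neither past the test. Of 10 prostate epithelial markers 4 were well above background on all arrays, among them Krt5, Krt8 and Krt14, and 3 on none, among them Cdh1 and Hoxb13. All 7 fibroblast markers and 4 of 8 macrophage markers were above background on all arrays. The summed signal of the fibroblast markers was 90256 to 90694 percent in Control, 57388 to 58087 at 24 h and 58262 to 61527 at 48 h; that of the macrophage markers was 3986 to 4452, 3009 to 3769 and 2465 to 3401, and that of the epithelial markers 188 to 226, 203 to 204 and 268 to 273. The sums are led by the brightest probes, Itgam alone for the macrophage markers, and single markers moved both ways. Of the fibroblast markers 4 were lower and 1, Pdgfra, higher at 24 h (log2 fold change 1.33, adjusted p = 0.0178), and 3 were lower and 0 higher at 48 h. Among all 24648 tested genes 1477 passed as lower at 24 h and 1820 at 48 h, while 8.02% and 6.58% passed as higher. Of the 5 macrophage markers tested, Cd14 was higher at both times (0.87, adjusted p = 0.0101, and 0.69, adjusted p = 0.0191) and 0 were lower, with Itgam at -0.43 and -0.65 (adjusted p = 0.264 and 0.12). Of the 6 epithelial markers tested 0 passed at 24 h and Krt8 was higher at 48 h (1.98, adjusted p = 0.0106). The part of these levels in the results below was not tested.

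CSF-1 raised 5 of the 10 genes over their unstimulated level, at 24 h and again at 48 h. All 5 were ligands (Btc, Areg, Ereg, Hbegf and Tgfa). The increases ran from 1.69-fold to 21.2-fold at 24 h and from 1.51-fold to 22.3-fold at 48 h. Epgn and the 4 receptor genes did not pass. Of all tested genes 8.02% passed as higher at 24 h and 6.58% at 48 h. Without Control replicate 2, 3 of the 5 ligands still passed at 24 h. At 48 h only Btc and Hbegf among the 5 ligands still passed without either Control array or either 48 h array. The median log2 fold change of the 10 genes was 1.28 at 24 h and 1.04 at 48 h, against 0.04 and -0.04 over all genes. The 2 comparisons share the Control arrays and are therefore not independent of each other. At the threshold the study used, an unadjusted p of less than 0.05 and a change of at least 2-fold, limma gave Btc, Areg, Ereg and Hbegf at both times with Egfr at 24 h and Erbb4 at 48 h, against 7.68% of all genes at 24 h and 6.48% at 48 h. Both stimulated arrays lay above both Control arrays for 8 of the 10 genes at 24 h and for 6 at 48 h, against 31.3% and 23.8% of all genes. These counts include Erbb4, which was not well above background on the Control or 24 h arrays. Among the other 9 genes, Btc included, they were 7 and 5. All 10 genes passed the filter on dim probes, Erbb4 through its 48 h arrays alone, Btc through its stimulated arrays and Erbb3 through its Control arrays.

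**Figure D1:**
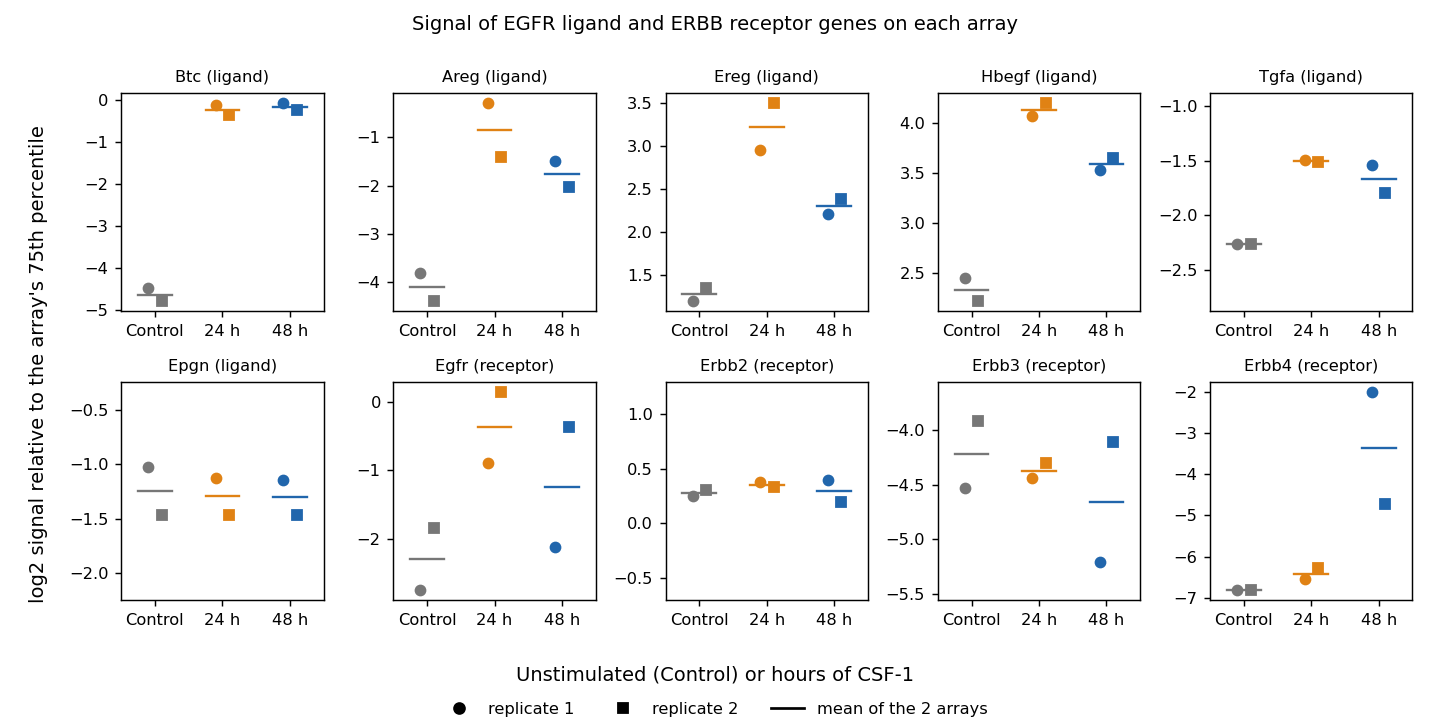
Each panel plots 1 gene, with the log2 signal relative to the 75th percentile of the array on the vertical axis (scales differ between panels) and the 3 groups on the horizontal axis. Circles and squares are replicates 1 and 2 and lines their means. Both stimulated groups lie above the Control arrays for Btc, Areg, Ereg, Hbegf and Tgfa, while the groups overlap for Epgn and Erbb3.

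Btc encodes betacellulin, a ligand of EGFR and ERBB4. Its signal was 4.46 and 3.60 percent on the Control arrays, 92.1 and 78.2 percent at 24 h, and 95.02 and 84.36 percent at 48 h. The gene went from a level near background, well above it on 1 of the 2 Control arrays, to a level close to the 75th percentile on every stimulated array, with no overlap. It rose 21.2-fold at 24 h (log2 fold change 4.40 [3.99, 4.82], adjusted p = 0.00099) and 22.3-fold at 48 h (4.48 [4.07, 4.89], adjusted p = 0.000927). Btc entered the test through its stimulated arrays alone, so these p-values are no separate evidence of a rise. In limma without the filter on dim probes the adjusted p was 0.0122 at 24 h and 0.00928 at 48 h. By absolute log2 fold change it ranked 71 among all tested genes at 24 h and 109 at 48 h. With normexp background correction the log2 fold changes were 2.64 and 2.68 with scaling to the 75th percentile and 2.55 and 2.59 with quantile scaling, and both still passed. The 24 h and 48 h arrays overlapped, and the 48 h level differed from that at 24 h by a log2 fold change of 0.08 [-0.33, 0.49] (adjusted p = 0.858).

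Areg encodes amphiregulin, an EGFR ligand with a heparin-binding stretch. On the Control arrays its signal was 7.09 and 4.76 percent. At 24 h it was 81.9 and 37.8 percent and at 48 h 35.5 and 24.5 percent. Both stimulated groups lay above the Control arrays, and the 24 h arrays were the most unequal pair. The rise was 9.58-fold at 24 h (log2 fold change 3.26 [2.19, 4.34], adjusted p = 0.0114) and 5.07-fold at 48 h (2.34 [1.27, 3.42], adjusted p = 0.0271). At 24 h it no longer passed without Control replicate 2 (2.97, adjusted p = 0.0696), and at 48 h it did not pass without either Control array or either 48 h array (adjusted p between 0.0792 and 0.119), nor without the filter on dim probes (adjusted p = 0.0899). With normexp background correction the log2 fold changes were 2.01 and 1.27 (75th percentile) or 1.91 and 1.20 (quantile scaling), past the test at both times.

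Ereg encodes epiregulin, which binds EGFR and ERBB4. Its signal was 229 and 255 percent in unstimulated cells. It reached 774 and 1136 percent at 24 h and stood at 462 and 524 percent at 48 h. The 3 groups did not overlap, with the highest values at 24 h. The rise was 3.88-fold at 24 h (log2 fold change 1.96 [1.43, 2.48], adjusted p = 0.0072) and 2.04-fold at 48 h (1.03 [0.50, 1.55], adjusted p = 0.0351). Without the filter on dim probes Ereg did not pass at 48 h (adjusted p = 0.109). The 48 h call was lost without either Control array or either 48 h array (adjusted p between 0.0996 and 0.147).

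Hbegf encodes heparin-binding EGF-like growth factor, another ligand of EGFR and ERBB4, and lies on chromosome 18. It gave 548 and 466 percent in Control, 1677 and 1839 percent at 24 h, and 1156 and 1257 percent at 48 h. As for Ereg, the 3 groups were separate and the 24 h arrays were highest. Hbegf rose 3.48-fold at 24 h (log2 fold change 1.80 [1.46, 2.14], adjusted p = 0.00309) and 2.39-fold at 48 h (1.25 [0.92, 1.59], adjusted p = 0.00702). Like Btc, it passed at both times whichever single array was left out.

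Tgfa encodes transforming growth factor alpha, a ligand of EGFR. The values were 20.9 and 20.8 percent in Control, 35.5 and 35.1 percent at 24 h, and 34.4 and 28.9 percent at 48 h. The stimulated arrays lay above the Control arrays, with the smallest fold change of the 5 ligands that passed. The rise was 1.69-fold at 24 h (log2 fold change 0.76 [0.44, 1.08], adjusted p = 0.0212) and 1.51-fold at 48 h (0.60 [0.28, 0.91], adjusted p = 0.0389). Without the filter on dim probes Tgfa passed at neither time (adjusted p = 0.0691 and 0.123). At 48 h it also did not pass after normexp correction with the 75th percentile (adjusted p = 0.0577). The call at 24 h was lost without any 1 of the Control or 24 h arrays (adjusted p between 0.0859 and 0.0976), and that at 48 h without any 1 of the 6 arrays (0.0768 to 0.143).

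Epgn encodes epigen, an EGFR ligand. Its signal was 49.1 and 36.1 percent in Control, 45.8 and 36.2 percent at 24 h, and 45.2 and 36.2 percent at 48 h. Replicate 1 was above replicate 2 in every group, by more than the groups differed. The log2 fold change was -0.05 [-0.60, 0.51] at 24 h (adjusted p = 0.916) and -0.06 [-0.61, 0.50] at 48 h (adjusted p = 0.894).

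**Figure D2:**
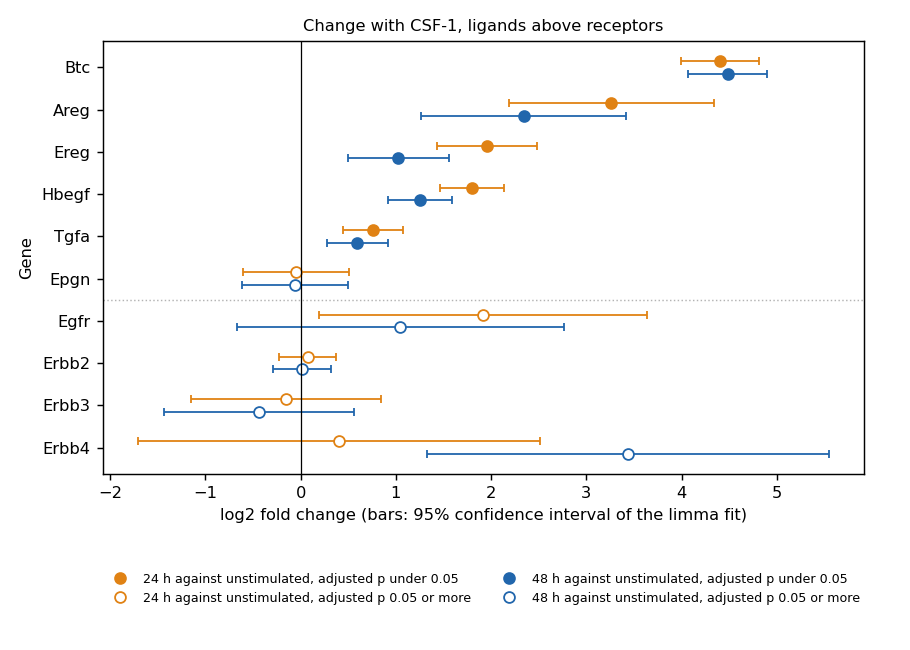
The horizontal axis gives the log2 fold change against unstimulated cells at 24 h and 48 h, with 95% confidence intervals of the limma fit, and the rows are the 6 ligand genes above the dotted line and the 4 receptor genes below it. Filled points, those with an adjusted p of less than 0.05, are the same 5 ligands at both times, with Btc at 4.40 and 4.48.

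Among the neighbors on chromosome 5, Ereg, Areg and Btc thus rose while Epgn, whose probe lay 58.4 kb from that of Ereg, did not pass. The genes around the cluster were looked at after the ligand values had been seen. Of 11 other genes on the array that RefSeq places within 500 kb of the cluster, 4 were tested. Ppbp and Cxcl1, which encode chemokines, were higher. Ppbp was not well above background in Control. With Control set to the lowest signal well above background, it was at least 10.2-fold higher at 24 h and 17.4-fold higher at 48 h. Its limma test took the measured signals and passed at both times (adjusted p = 0.0262 and 0.0174). Ppbp entered the test through its stimulated arrays alone, so these p-values are no separate evidence of a rise. Cxcl1 rose by a log2 fold change of 2.18 (adjusted p = 0.00735) and 2.11 (adjusted p = 0.0077). Mthfd2l, a mitochondrial folate enzyme gene next to Epgn, gave -0.11 at 24 h (adjusted p = 0.559) and fell by 0.50 on the log2 scale at 48 h (adjusted p = 0.04). Parm1, on the far side of Btc, fell by 1.90 at 24 h (adjusted p = 0.0048) and by 1.93 at 48 h (adjusted p = 0.00425).

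**Figure D3:**
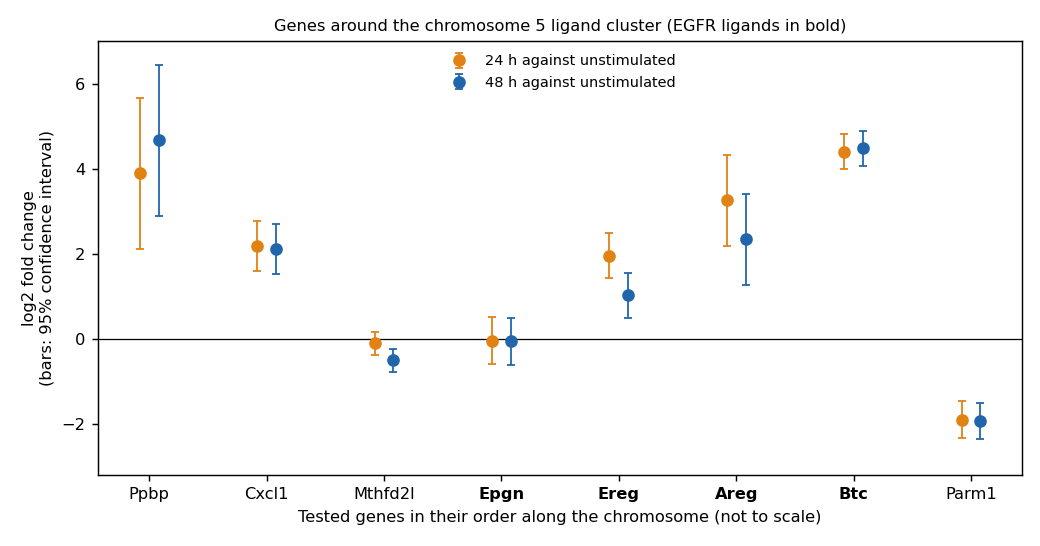
The tested genes in and around the chromosome 5 ligand cluster are in chromosomal order on the horizontal axis, not to scale, and the vertical axis gives the log2 fold change against unstimulated cells with its 95% confidence interval. Epgn, at -0.05 and -0.06, stands next to Mthfd2l on one side and to Ereg, Areg and Btc, which rose, on the other, and Parm1, at -1.90 and -1.93, was lower.

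Egfr encodes the receptor that binds the 5 ligands that rose. It was covered by 3 probes on chromosome 11, and the probes did not give the same call. The brightest, A_52_P106259, named for the full-length transcript NM_207655, gave 14.9 and 28.1 percent in Control, 53.8 and 110 percent at 24 h, and 23.1 and 77.2 percent at 48 h. Replicate 2 was above replicate 1 in every group, the 24 h arrays lay above the Control arrays, and the 48 h arrays overlapped with them. The log2 fold change was 1.91 [0.19, 3.63] at 24 h (adjusted p = 0.128) and 1.05 [-0.67, 2.77] at 48 h (adjusted p = 0.365), and neither passed.

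The other Egfr probes are named for NM_007912, the record of a shorter transcript that encodes a receptor without the kinase. The probes were not placed in exons, so whether either also detects the full-length transcript was not determined. The probe A_55_P1956862 (mm9, chr11:16787172-16787231, plus strand) is shown because it contains a stop codon, in capitals, at its 3′ end in the frame that opens at its first base.
Egfr: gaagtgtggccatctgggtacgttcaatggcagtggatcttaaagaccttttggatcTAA
It gave 4.29 and 5.06 percent in Control, 19.0 and 30.2 percent at 24 h, and 8.51 and 15.6 percent at 48 h. The groups did not overlap. Its signal rose at 24 h (log2 fold change 2.36, adjusted p = 0.0185 over all probes tested) and gave 1.31 at 48 h (adjusted p = 0.0763). The third probe, A_55_P1956863, gave 10.98 and 12.2 percent in Control, 29.8 and 37.4 percent at 24 h, and 19.3 and 26.2 percent at 48 h. Its signal rose at both times (log2 fold change 1.53, adjusted p = 0.0134, and 0.96, adjusted p = 0.0427, over all probes tested). All 3 probes were highest at 24 h, and whether the probes differed in their change was not tested. With the mean of the 3 probes Egfr passed at 24 h (log2 fold change 1.93, adjusted p = 0.0369). With the brightest probe it also passed at 24 h after normexp correction with the 75th percentile (1.43, adjusted p = 0.047). It passed as well with an intensity trend in the prior spread (1.91, adjusted p = 0.0485). With replicate number as a block the brightest probe passed at 24 h too (1.91, adjusted p = 0.0206). The replicate numbers were not taken to pair the cultures. Of 14 limma alternatives with adjusted p, left-out arrays aside, Egfr did not pass at 24 h in 9.

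**Figure D4:**
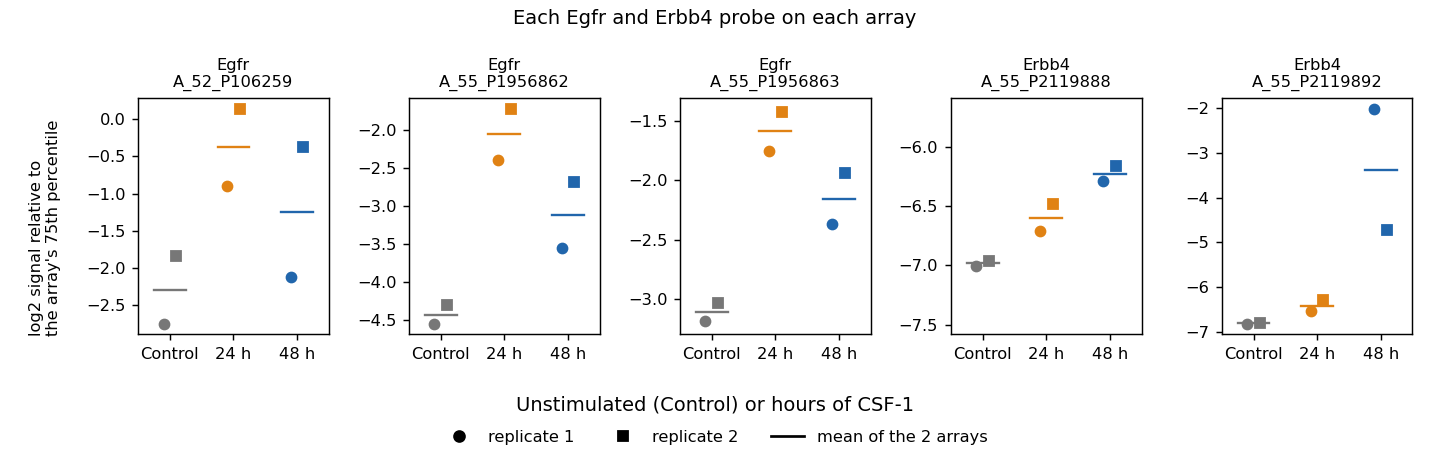
Each panel plots 1 probe of Egfr (left 3 panels) or Erbb4 (right 2 panels), with the log2 signal relative to the 75th percentile of the array on the vertical axis and the groups on the horizontal axis; circles and squares are replicates 1 and 2 and lines their means. Replicate 2 is above replicate 1 for every Egfr probe in every group. The last Erbb4 probe is highest on the 48 h arrays, at 24.8 percent on replicate 1 and only 3.76 percent on replicate 2.

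Erbb2, the receptor without a ligand of its own, gave 119 and 124 percent in Control, 130 and 126 percent at 24 h, and 132 and 114 percent at 48 h. All 6 arrays lay within a narrow range. The log2 fold changes were 0.07 [-0.23, 0.38] at 24 h (adjusted p = 0.733) and 0.02 [-0.29, 0.32] at 48 h (adjusted p = 0.95), and with arrays centered on their median both turned negative, to -0.21 and -0.08. That centering moved the median of all genes to -0.25 at 24 h and -0.14 at 48 h, and it left the log2 fold changes of the 5 ligands above 0, though Tgfa no longer passed at 24 h (adjusted p = 0.0688) or 48 h (0.0782) and Ereg no longer at 48 h (0.0719).

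Erbb3, the neuregulin receptor with a weak kinase, was close to background, with 4.33 and 6.64 percent in Control, 4.61 and 5.07 percent at 24 h, and 2.71 and 5.78 percent at 48 h. It was well above background on both Control arrays, on neither 24 h array and on 1 of the 48 h arrays. The groups overlapped, and the log2 fold changes were -0.15 [-1.15, 0.85] (adjusted p = 0.844) and -0.44 [-1.44, 0.56] (adjusted p = 0.518).

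Erbb4, which binds neuregulins and several EGFR ligands, was covered by 2 probes on the minus strand of chromosome 1. The probe A_55_P2119888 for NM_010154 was not well above background on any array, with values between 0.779 and 1.40 percent. The probe A_55_P2119892, named for an Ensembl transcript, gave 0.887 and 0.894 percent in Control, 1.08 and 1.28 percent at 24 h, and 24.8 and 3.76 percent at 48 h. It was well above background on the 48 h arrays alone, which differed widely from each other. For a bound, each dim array was set to the lowest signal that was well above its background. The 48 h level was then at least 3.49-fold higher than in Control and at least 1.999-fold higher than at 24 h. The limma test took the measured signals, not these bounds. It did not pass against Control (adjusted p = 0.0534) or against 24 h (adjusted p = 0.236). Against Control the bound was 1.36-fold without 48 h replicate 1 and 8.96-fold without 48 h replicate 2, so that it rested largely on 1 array. Against 24 h no bound could be given without 48 h replicate 1. With all 6 arrays Erbb4 at 48 h passed with median centering (adjusted p = 0.0367), normexp with quantile scaling (0.0413) and an intensity trend (0.0278). Without the filter on dim probes it did not pass (adjusted p = 0.141). Erbb4 entered the test through its 48 h arrays alone, and its p-values set these against signals not well above background. They are therefore no separate evidence of a rise.

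Between 24 h and 48 h, none of the 10 genes passed the limma test, and none of the 24648 tested genes did. With a 2-fold change and an unadjusted p of less than 0.05, limma gave Erbb4 alone, against 2.27% of all genes. Unadjusted p alone was less than 0.05 for 3 of the 10 genes and for 13.6% of all genes. These were Ereg, with a log2 fold change from 24 h to 48 h of -0.93 [-1.46, -0.40] (unadjusted p = 0.00566, adjusted p = 0.183), Hbegf with -0.54 [-0.88, -0.20] (0.00853 and 0.207), and Erbb4 with the bound given above. Areg gave -0.92 [-1.99, 0.16] (adjusted p = 0.426) and Tgfa -0.16 [-0.48, 0.15] (adjusted p = 0.617). The 48 h arrays lay below the 24 h arrays for Areg, Ereg, Hbegf and Tgfa, and overlapped with them for Btc. The arrays of the 2 times did not overlap for 47.9% of all genes. Without 48 h replicate 2, Erbb4 was at least 5.14-fold higher at 48 h than at 24 h. Without 48 h replicate 1 no bound could be given, so that this rise rested on 48 h replicate 1.

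Other genes of the pathway were taken from a list of 64 genes in 5 groups, of which 60 could be tested and Egf, Nrg3, Rhbdf2 and Grb7 could not. At 24 h 6 were higher and 1 was lower, 7 of 60 against 14% of all genes. At 48 h 5 were higher and 3 lower, again against 14%. The median log2 fold change of the list was 0.09 at both times. Without Control replicate 2 the count at 24 h was 4, and at 48 h it was 2 without either Control array or either 48 h array.

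Of the genes for shedding and trafficking of the ligands 2 of 11 passed, both upwards at both times, against 14% of all genes in either direction. Adam8, a metalloprotease of leukocytes and tumors, went from 327 and 324 percent in Control to 1814 and 1909 percent at 24 h and 1834 and 2209 percent at 48 h. This was a rise of 2.52 and 2.63 on the log2 scale (adjusted p = 0.00145 and 0.00127). Adam19, a metalloprotease that can cut neuregulin, rose by 2.89 and 2.12 (adjusted p = 0.006 and 0.013). Adam17 and Adam10, the proteases best known for releasing EGFR ligands and named here after their values were seen, gave log2 fold changes of 0.45 and 0.29 (adjusted p = 0.072 and 0.189) and of 0.16 and 0.22 (adjusted p = 0.41 and 0.282).

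Of the negative regulators 2 of 13 passed, also upwards at both times, a share close to the 14% of all genes that passed in either direction. Errfi1, which encodes the EGFR inhibitor MIG6, was at 2085 and 2391 percent in Control, 7523 and 9026 percent at 24 h, and 5806 and 4835 percent at 48 h. It rose by 1.88 and 1.25 on the log2 scale (adjusted p = 0.00435 and 0.0118). Ptprj, a receptor tyrosine phosphatase, rose by 1.25 and 0.76 (adjusted p = 0.00559 and 0.0187). As for Ereg and Hbegf, the 48 h arrays of both lay between those of Control and 24 h.

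Of the 25 adaptors and kinases tested, 2 passed at 24 h and 3 at 48 h, against 14% of all genes at each time. Map2k1, the kinase MEK1, rose by 1.09 and 1.25 (adjusted p = 0.0248 and 0.0182). Braf, named after its values were seen, fell by 0.50 at 48 h (adjusted p = 0.0348). None of the 8 receptor partners and endocytosis genes passed. Among the 3 other ligands tested, Nrg1, a neuregulin for ERBB3 and ERBB4, fell from 233 and 270 percent in Control to 159 and 149 percent at 24 h and 138 and 107 percent at 48 h. Its log2 fold change was -0.71 (adjusted p = 0.0489) and -1.05 (adjusted p = 0.0196), the opposite direction to the 5 EGFR ligands.

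**Figure D5:**
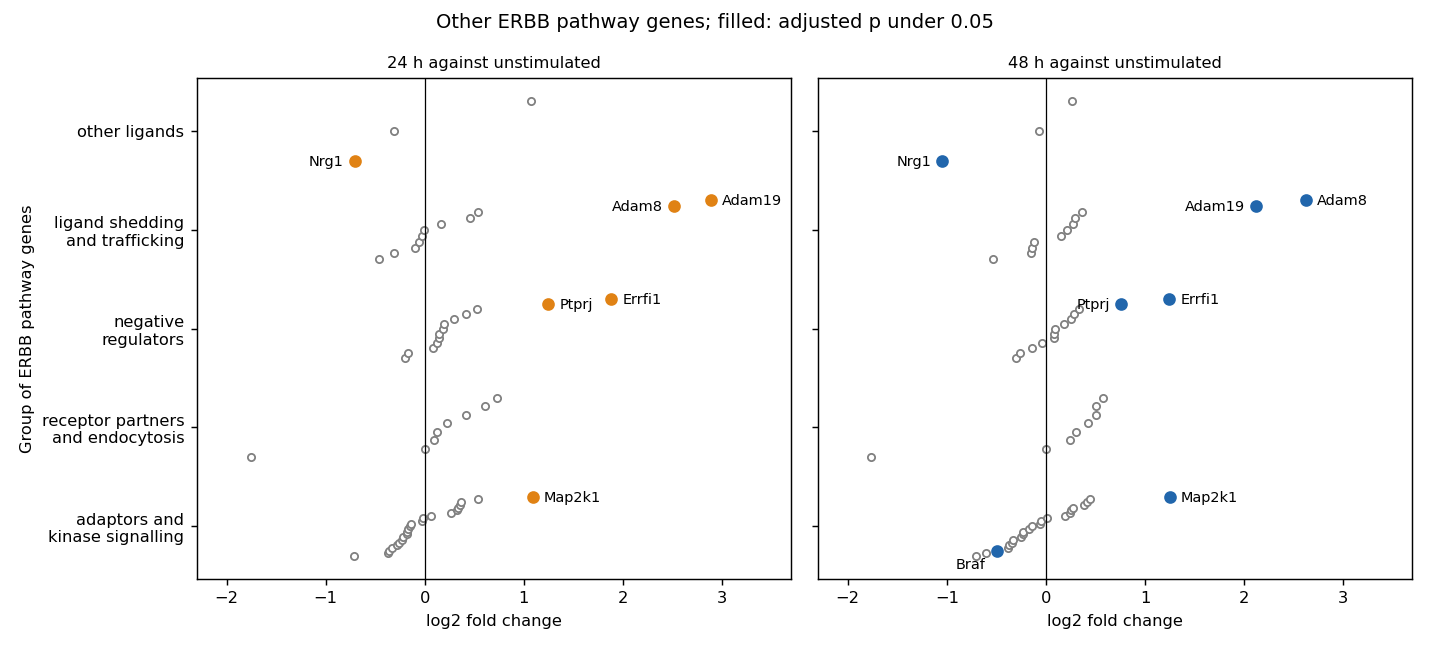
Each point is 1 of 58 tested pathway genes, with its log2 fold change against unstimulated cells on the horizontal axis and its group on the vertical axis, at 24 h (left) and 48 h (right); points of a group are spread by rank. Filled and named points passed the test, 6 at 24 h and 7 at 48 h, with Adam8 and Adam19 the farthest to the right in both panels.

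The tested genes whose course over the 6 arrays was most like that of a ligand were sought among 13852 genes with a RefSeq symbol, by the Euclidean distance of log2 signals centered on their mean. For Btc these were Slc14a1, a urea transporter gene (distance 0.67), Fgf1, a fibroblast growth factor (0.70), and Ggct, an enzyme of glutathione turnover (0.70). For Areg they were Hgf, the hepatocyte growth factor (1.02), Jag1, a Notch ligand (1.08), and Prokr2, a prokineticin receptor (1.09). For Hbegf they were Tnfsf9, the ligand of 4-1BB (0.25), Ndst3, a heparan sulfate enzyme (0.27), and Myom1, a muscle structural protein (0.29). The distances were widest for Areg, whose 24 h arrays differed most from each other.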

How the data were processed

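Total RNA of 6 N18-Fms cultures was labeled with Cyanine 3 and hybridized to Agilent 60K mouse arrays, and the authors deposited 1 scanner file per array with spot intensity values from Agilent Feature Extraction 11.0.1 (background-subtracted processed signal) and a table of normalized log2 values, whose scale and centering the files do not state. Its columns had medians between -0.04 and 0.17. Differences between arrays in that table lay within 0.05 of those computed here for 99.8% of 44323 shared probes.

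Groups followed the sample labels. Processed signals of non-control spots were averaged per probe without outlier spots (303 probes were lost), taken as log2 and set against the 75th percentile of the array. The brightest probe stood for a gene. A gene was tested if both arrays of some group had it well above background (24648 of 36028 genes), and these were fitted with limma 3.58.1 in R 4.3.3 (lmFit and eBayes on all 6 arrays, no covariate), with Benjamini-Hochberg adjustment over them; probes of Egfr and Erbb4 were adjusted over all probes tested. The scripts were tested on simulated data. The number of arrays limits the precision.

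The 10 genes, the pathway list and the markers were chosen with earlier results of these data known. Named beside the 10 were Csf1r, up to 3 pathway genes per group with the largest mean absolute log2 fold change among those that passed, and the 3 tested genes nearest to each of the 3 ligands with the largest mean change that passed at both times. Alternatives covered scaling, background, filter, probes, spread, blocks, left-out arrays and thresholds. Replicate 1 of the 24 h group lay on another slide than the other 5, and a slide block equals leaving it out for that group. The methods' t-test was run on the same values. No columns of the authors' own comparisons were used. Results on some genes and sequences are not reported here.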

Additional observations from a re-analysis of the deposited data

How the results depend on the processing

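Btc and Hbegf passed at both times under every alternative that used limma with adjusted p, the left-out arrays included (lowest log2 fold changes 2.55 and 1.14), except that Btc was not tested where all 6 arrays had to be above background. The counts and calls below moved, and the cause was not tested unless the setting itself removed arrays or genes.

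With replicate number as a block, 6 of the 10 genes passed at 24 h and 5 at 48 h; Egfr then passed at 24 h (log2 fold change 1.91, adjusted p = 0.0206), and no other call among the 10 genes changed. Deviations of the same-numbered arrays correlated at 0.128, 0.094 and 0.199 between groups, so the numbers were not taken to pair the cultures.

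Without the filter on dim probes, which tests more genes, 2 of the 10 genes passed at 48 h, 4 and 1 pathway genes passed at 24 h and 48 h, and 1319 and 870 of all genes. Requiring all 6 arrays above background gave 13 pathway genes at 48 h and 5 genes in all between 24 h and 48 h. With normexp background correction 11 pathway genes passed at 24 h and 16 at 48 h under either scaling, and between the times 210 genes in all (75th percentile) or 314 (quantile scaling), the latter with 1 of the 10 genes, Ereg. An intensity trend gave 12 and 19 pathway genes, 5477 genes in all at 48 h and 195 between the times. Between the times 6 genes in all passed with quantile scaling and 5 with median centering. The authors' table gave 5 pathway genes at 48 h, and Egfr passed there at both times (log2 fold change 1.53 and 0.97). These values are those of probe A_55_P1956863 (1.53 and 0.96 here) and not of the brightest probe (1.91 and 1.05). A different probe thus stood for Egfr in that setting. The slide block gave 1079 genes in all at 24 h and, like the fit on the compared groups alone, 2116 at 48 h. At the study's threshold of unadjusted p and 2-fold change, limma gave 1894, 1598 and 560 genes in all (24 h, 48 h, between the times), 5 pathway genes at 48 h, 1 pathway gene between the times, and 1 of the 10 genes, Erbb4, between the times. At this threshold the methods' t-test gave 1352, 1162 and 251 genes in all, 5 pathway genes at 48 h, and 4, 4 and 0 of the 10 genes. After Benjamini-Hochberg adjustment it gave 0 of the 10 genes, 0 pathway genes and 0 genes in all in each comparison.

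Leaving out each array in turn gave 3 to 5, 2 to 4 and 0 to 1 of the 10 genes (24 h, 48 h, between the times), 4 to 7, 2 to 7 and 0 pathway genes, and 899 to 2539, 889 to 2116 and 0 to 11 genes in all. An arm left with 1 array was taken to vary like the other groups. The sign of small differences turned with the array left out: Epgn spanned -0.27 to 0.17 at 24 h, -0.28 to 0.16 at 48 h and -0.18 to 0.16 between the times, Erbb2 -0.085 to 0.12 at 48 h and -0.16 to 0.043 between the times, Erbb3 -0.46 to 0.16, -0.98 to 0.11 and -0.83 to 0.26, Btc -0.040 to 0.19 between the times, and Egfr -1.74 to 0.0032 between the times.

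Other settings turned the sign of values that had not passed. Erbb4 at 24 h was -0.043, -0.16 and -0.19 (quantile scaling, and normexp with 75th percentile or quantile scaling), and Erbb3 at 24 h was 0.024 (normexp, 75th percentile). Between the times Epgn was 0.034, 0.17, 0.026 and 0.16 (quantile scaling, median centering, normexp with quantile scaling, slide block), Erbb3 0.24 and 0.046 (quantile scaling without and with normexp), and with median centering Tgfa was 0.020 and Erbb2 0.13; Erbb2 was then -0.21 at 24 h and -0.084 at 48 h.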
